A study of Mus musculus with 9 samples.

Results

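HEB binding sites called in CD73- cells were set against those called in CD73+ cells, both derived from mouse thymocyte precursors that had been given a gamma-delta T cell receptor. On chromosomes 1 to 19, X and Y the CD73- list held 9407 HEB peaks and the CD73+ list held 10194, together 19601 of the 79216 peaks in the 6 deposited lists. A peak was counted as shared where it overlapped a peak of the other list by at least 1 bp, and as found in a single population alone otherwise. This gave 2160 shared regions, 7069 peaks in CD73- cells alone and 7945 peaks in CD73+ cells alone. Each was assigned to the nearest of 21907 mouse genes that encode proteins or T cell receptor and antibody constant regions.

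The 9 libraries of the series cover HEB, E2A and input chromatin in DN3, CD73- and CD73+ cells, 1 library per group. All cells came from BALB/c Rag2-/- fetal liver progenitors, which cannot rearrange receptor genes of their own, and DN3 cells were harvested on day 7 of culture. For the CD73- and CD73+ groups, DN3 cells were kept overnight with IL7, Flt3L and polybrene on GP+E cells producing the MIY-KN6 retrovirus, which encodes the KN6 gamma-delta receptor. YFP+ DN3 cells were then sorted and spent 3 days on the stromal line OP9-DL1, which displays a Notch ligand. They were fixed for 10 min in 1% formaldehyde at 20 °C and sorted as Thy1+ YFP+ CD4- CD8- CD24+ cells without or with CD73. The submitters describe the CD73- cells as still able to become alpha-beta T cells and the CD73+ cells as committed to the gamma-delta fate. HEB was precipitated with affinity-purified rabbit serum directed at the final 12 residues of its C-terminus. The authors joined duplicate samples before calling peaks, so replicate error cannot be given, no test between the populations was possible, and intervals cover counting error alone. Read depth is unknown. A gene without a peak had none called, which does not show that HEB was absent there. Peak lists also hold no expression values, so the sorted identities could not be checked against markers.

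HEB is a basic helix-loop-helix factor that binds E-box sequences as a dimer with itself or with E2A, encoded by Tcf3. Id proteins, above all Id3 in early T cells, pair with E proteins and keep them from DNA, and T cell receptor signals raise Id3 through Erk and Egr factors. E proteins open the receptor loci, drive the recombination genes and restrain proliferation at the DN3 stage. CD73, the ectoenzyme encoded by Nt5e, makes adenosine and appears on gamma-delta precursors that have received a receptor signal.

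Promoters with a called peak show the kind of DNA in each set. The windows below run from 250 bases before to 50 bases after a start site, come from RefSeq on GRCm38.p6 (mm10), and were chosen, after their scores were seen, among the highest-scoring peaks of each set. Capitals mark CAGCTG and CACCTG, the E-box forms preferred by E proteins (CAGGTG is CACCTG read on the other strand). The shared examples are Arpp21 (chr9:112217212-112217511, minus strand), an RNA-binding phosphoprotein gene, and Sla2 (chr2:156887172-156887471, minus strand), which encodes an adaptor that dampens T cell receptor signals. From CD73- cells alone come Cbfa2t3 (chr8:122699060-122699359, minus strand), a corepressor that pairs with E proteins, and Pld2 (chr11:70539814-70540113, plus strand), a phospholipase. From CD73+ cells alone come Msh6 (chr17:87974800-87975099, plus strand), a mismatch repair gene, Dclre1c (chr2:3423881-3424180, plus strand), which encodes the Artemis nuclease of V(D)J recombination, and Gfi1 (chr5:107725756-107726055, minus strand), a zinc-finger repressor of lymphoid progenitors.
Arpp21: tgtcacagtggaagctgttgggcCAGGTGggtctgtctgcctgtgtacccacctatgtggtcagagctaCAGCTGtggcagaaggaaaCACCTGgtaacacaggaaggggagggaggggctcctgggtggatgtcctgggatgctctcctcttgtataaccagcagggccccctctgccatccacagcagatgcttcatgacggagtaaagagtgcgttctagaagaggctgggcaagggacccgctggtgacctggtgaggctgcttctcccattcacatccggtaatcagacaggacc
Sla2: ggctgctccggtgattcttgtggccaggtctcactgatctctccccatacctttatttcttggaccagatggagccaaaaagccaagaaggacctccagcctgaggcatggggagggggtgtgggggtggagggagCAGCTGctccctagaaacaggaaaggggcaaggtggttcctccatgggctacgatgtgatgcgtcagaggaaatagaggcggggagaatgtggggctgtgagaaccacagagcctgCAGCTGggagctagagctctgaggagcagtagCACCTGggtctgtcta
Cbfa2t3: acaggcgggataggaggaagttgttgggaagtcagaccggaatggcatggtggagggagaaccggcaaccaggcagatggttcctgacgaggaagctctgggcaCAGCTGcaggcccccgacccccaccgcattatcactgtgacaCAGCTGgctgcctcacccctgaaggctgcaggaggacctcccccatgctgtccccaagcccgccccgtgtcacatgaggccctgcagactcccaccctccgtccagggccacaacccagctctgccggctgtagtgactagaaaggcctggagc
Pld2: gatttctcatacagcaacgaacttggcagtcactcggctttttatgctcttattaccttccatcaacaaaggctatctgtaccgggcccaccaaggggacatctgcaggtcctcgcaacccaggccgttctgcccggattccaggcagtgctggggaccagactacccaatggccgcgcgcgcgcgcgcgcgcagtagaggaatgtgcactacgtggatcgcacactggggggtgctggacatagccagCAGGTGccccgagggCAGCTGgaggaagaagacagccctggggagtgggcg
Msh6: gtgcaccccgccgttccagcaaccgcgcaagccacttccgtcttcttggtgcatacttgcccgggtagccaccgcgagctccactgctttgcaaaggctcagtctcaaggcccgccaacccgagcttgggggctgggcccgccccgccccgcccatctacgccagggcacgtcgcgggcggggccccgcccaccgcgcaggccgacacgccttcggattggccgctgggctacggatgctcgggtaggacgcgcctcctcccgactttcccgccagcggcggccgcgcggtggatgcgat
Dclre1c: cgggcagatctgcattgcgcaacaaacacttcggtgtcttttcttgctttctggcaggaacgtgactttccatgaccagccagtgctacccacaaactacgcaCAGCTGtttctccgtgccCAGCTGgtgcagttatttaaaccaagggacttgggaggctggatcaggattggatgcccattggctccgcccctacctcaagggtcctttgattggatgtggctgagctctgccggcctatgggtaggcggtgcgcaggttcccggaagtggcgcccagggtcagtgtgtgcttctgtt
Gfi1: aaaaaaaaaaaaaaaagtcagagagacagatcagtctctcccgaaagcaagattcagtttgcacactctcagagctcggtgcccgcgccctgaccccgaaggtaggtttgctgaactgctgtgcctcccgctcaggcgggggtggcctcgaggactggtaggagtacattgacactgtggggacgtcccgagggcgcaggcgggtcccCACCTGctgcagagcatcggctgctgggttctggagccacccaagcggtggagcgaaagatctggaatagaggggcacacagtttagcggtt
Arpp21 carried 1 CAGCTG and 2 CACCTG, Dclre1c carried 2 CAGCTG, and Msh6 carried no match to either, although its peak scored 380 in CD73+ cells. The Dclre1c peak scored 316 and the Gfi1 peak 296 in CD73+ cells, and the Cbfa2t3 peak scored 220 in CD73- cells. All 3 had a DN3 HEB peak, at scores of 121, 94.7 and 682. Across all 32851 windows, 32.9% held CAGCTG or CACCTG on either strand. The share was 57% (95% Wilson interval 48.6 to 65.1) of 135 windows under shared regions, 52.2% (47.1 to 57.3) of 366 under peaks of CD73+ cells alone and 46.3% (33.7 to 59.4) of 54 under peaks of CD73- cells alone. The intervals of these 3 sets overlap, and each lies above the share of all windows. The Ets motif GGAAGT was in 23.8% of all windows, 17.8% of shared windows, 28.1% of those from CD73+ cells alone and 27.8% of those from CD73- cells alone. The Egr motif GCGTGGGCG was in 0.612% of all windows, in none of the 135 shared windows, in none of the 54 from CD73- cells alone and in 3 of the 366 from CD73+ cells alone. A match is a description of the letters, not of a site.

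A minority of each list was shared, and the share went with the peak score. The score is the deposited -10 log10 of the MACS p-value, and it ranks peaks within its own list only. Of the CD73- peaks 24.9% (24 to 25.7) overlapped a CD73+ peak, and of the CD73+ peaks 22.1% (21.3 to 22.9) overlapped a CD73- peak. Peaks scoring at least 100, called strong below, numbered 1348 (14.3%) in CD73- cells and 2458 (24.1%) in CD73+ cells. Of the strong peaks 78.1% in CD73- cells and 56.1% (54.1 to 58) in CD73+ cells were shared, against 15.9% and 11.3% of the weaker ones. Among scores of 50 to 60 the shares were 11.8% and 6.93%. Among scores of 500 to 1000 they were 92.5% and 95.8%. At 1000 or above, all 101 CD73+ peaks were shared, while 5 of 39 CD73- peaks were not. CD73+ peaks were also wider, with a median of 181 bp against 149 bp, so that the list covered 2622068 bp against 1852148 bp.

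**Figure D1:**
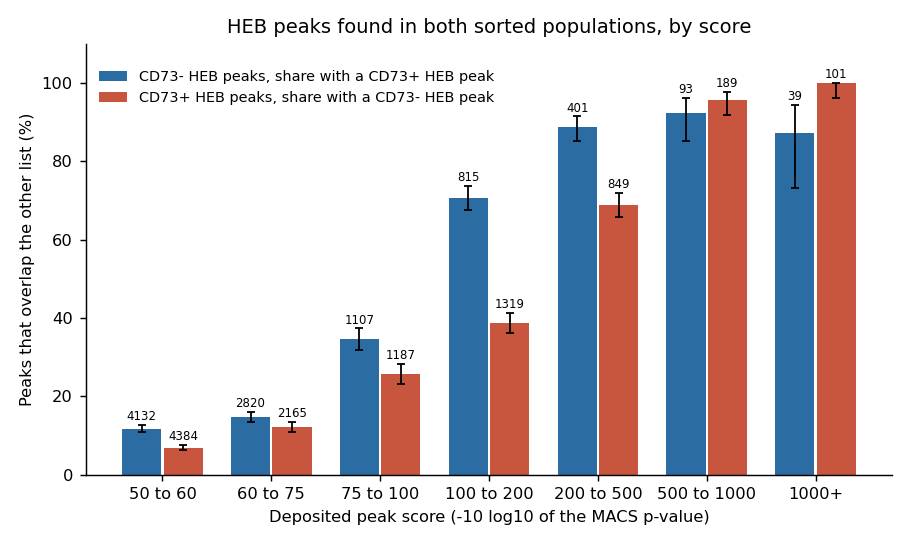
Share of HEB peaks that overlap a peak of the other population (vertical axis, %) by deposited score (horizontal axis), for the CD73- list (blue) and the CD73+ list (red), with 95% Wilson intervals and the number of peaks above each bar. The share climbs from 11.8% and 6.93% at scores of 50 to 60 to 87.2% or more in both lists at 500 and over, and the CD73+ share lies below the CD73- share between 100 and 500.

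Shared peaks overlap by definition, which bounds how far apart their midpoints can lie. Of the 2160 shared regions 1939 held 1 peak of each list, with median widths of 208 bp (CD73-) and 324 bp (CD73+). Their midpoints lay a median of 35 bp apart, with an upper quartile of 73 bp. Both peaks were strong in 884 regions, the CD73+ peak alone in 471, the CD73- peak alone in 141 and neither in 664. Of the peaks in CD73- cells alone, 4.71% lay within 500 bp of a CD73+ peak, and 4.91% of those in CD73+ cells alone lay that close to a CD73- peak. Most unshared peaks were therefore not narrow misses at the same site.

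The highest shared regions included sites with little relation to thymocyte genes. A pair of regions on chromosome 2, 1030489 and 1034555 bp from Lrrc4c, stood at the ceiling score of 3100 in all 6 lists, as did regions nearest to Gm2244 and Esp38. In total 607 regions had a peak in all 6 lists, and 20 of those lay over 500 kb from any gene used. Peaks also crowded into few places. The stretch chr8:20000001-21000000, near the predicted genes Gm15319 and Gm21119, held 459 HEB peaks, of which 74 were in CD73- cells alone and 126 in CD73+ cells alone. Megabases with 30 or more HEB peaks held 15.5% of the shared regions, 5.91% of the CD73- alone set and 8.21% of the CD73+ alone set. Without them 22.7% of the CD73- peaks and 20.4% of the CD73+ peaks were shared.

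Behind those sites, some high shared regions lay nearest to genes of T cell development. Near Trac, the T cell receptor alpha constant region, a region at chr14:54226997-54227924 scored 1074 in CD73- cells and 3063 in CD73+ cells, rank 34 and rank 10 in their lists. At Tcf7, which encodes the T lineage factor TCF-1, chr11:52313855-52314880 lay 31353.5 bp from the start and scored 286 (rank 333) and 1785 (rank 33). At Ccnd3, the cyclin that drives pre-TCR proliferation, one region in the gene span scored 2466 (rank 11) in CD73- cells and 1124 (rank 82) in CD73+ cells, and another scored 250.4 (rank 404) and 1472 (rank 52). The neighbouring Ccnd3 regions thus stood in opposite order in the lists. At Id2, an Id inhibitor, a region 93005 bp from the gene scored 739 and 1267. Shared regions with scores above 500 in both lists also lay at E2f2, a regulator of S phase entry (966 and 2721), Spred2, an Erk pathway inhibitor (882 and 2962), Socs3, a cytokine signalling inhibitor (794 and 1881), and Il6ra, an IL6 receptor chain (607 and 1806). Btg2, an antiproliferative gene, scored 858 and 1550.4, the adhesion molecule gene Selplg 1116 and 1269, and the inhibitory receptor gene Lag3 573 and 1064. All 7 of these regions had both DN3 HEB and DN3 E2A peaks.

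Some shared regions stood far apart in rank. At Itgam, which encodes the integrin chain CD11b, a region 3536 bp from the gene scored 135 (rank 872) in CD73- cells and 1134 (rank 79) in CD73+ cells. At Nr4a1, an orphan nuclear receptor induced by receptor signals, the region in the gene span scored 135 (rank 875) and 751 (rank 162). The region nearest to Arid1b, a chromatin remodelling subunit 367699 bp away, went the other way, with 3022 (rank 8) in CD73- cells and 56.3 (rank 7040) in CD73+ cells. That region scored 3100 in the DN3 HEB list, 79.2 in the DN3 E2A list, 1137 in the CD73- E2A list and 892 in the CD73+ E2A list. The CD73+ HEB and DN3 E2A lists therefore stood apart from the other 4 there. Ranks from lists of different length and depth do not show a change in binding.

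**Figure D2:**
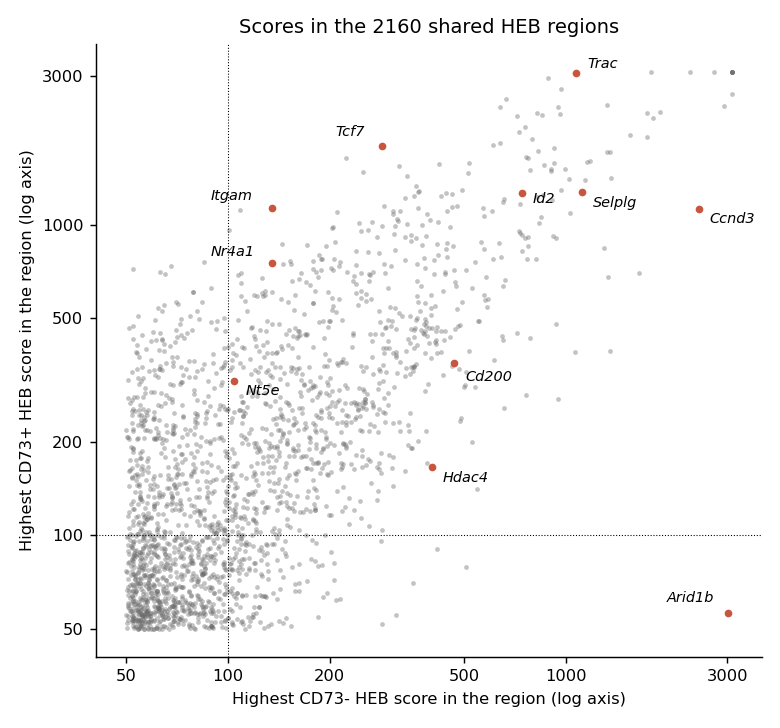
Highest CD73- HEB score (horizontal, log axis) against highest CD73+ HEB score (vertical, log axis) in each of the 2160 shared regions (grey), with regions nearest to named genes in red and dotted lines at a score of 100. Trac and Ccnd3 lie near the top of both lists, while Itgam and Nr4a1 stood higher in the CD73+ list and Arid1b in the CD73- list. Both peaks were strong in 884 regions, the CD73+ peak alone in 471 and the CD73- peak alone in 141.

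The sets differed in how often DN3 cells already had an E protein peak at the site. A DN3 HEB or DN3 E2A peak overlapped 86.9% (85.5 to 88.3) of shared regions, 33.1% (32 to 34.1) of peaks in CD73+ cells alone and 15.4% (14.6 to 16.3) of those in CD73- cells alone. Among strong peaks the shares were 96.6% (95.5 to 97.4), 80.7% (78.3 to 83) and 60% (54.3 to 65.4). Most strong peaks that CD73- cells lacked were thus in a DN3 list, the stage before receptor transduction. The kind of DN3 peak differed as well. Of the 1080 strong peaks in CD73+ cells alone, 63.4% overlapped a DN3 HEB peak and 74.8% a DN3 E2A peak. Of the 295 strong peaks in CD73- cells alone, 53.6% overlapped a DN3 HEB peak and 29.8% a DN3 E2A peak. DN3 peaks were wider, with medians of 721 bp for HEB and 617 bp for E2A, which raises overlap with any set. No DN3 peak was called at 40% of the strong CD73- alone peaks and 19.3% of the strong CD73+ alone peaks.

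**Figure D3:**
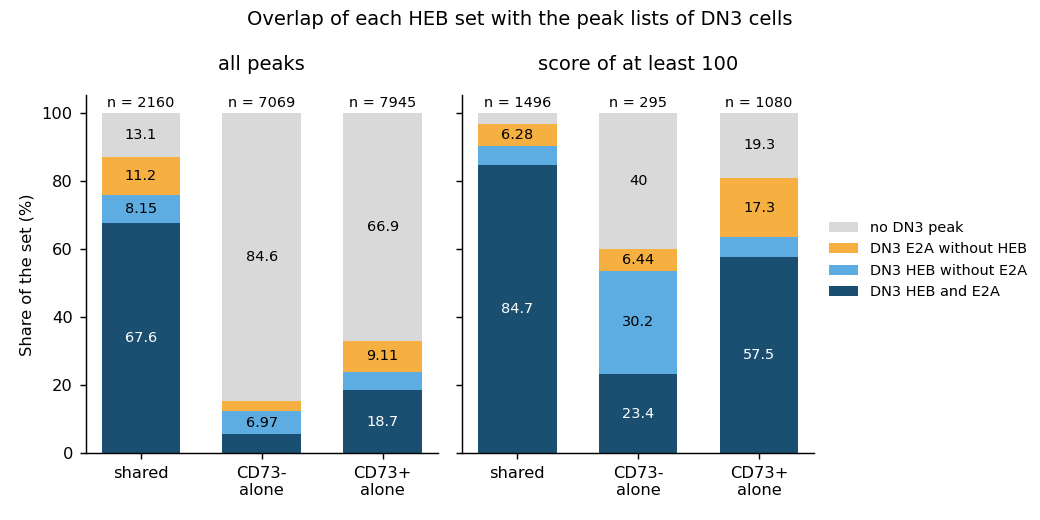
Share (vertical axis, %) of shared regions, peaks in CD73- cells alone and peaks in CD73+ cells alone that overlap DN3 HEB and E2A peaks, either one or neither, for all peaks (left) and strong peaks (right), with set sizes above the bars. Neither DN3 factor was called at 84.6% of all CD73- alone peaks and 66.9% of all CD73+ alone peaks, and at 40% and 19.3% of the strong ones.

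E2A in the same cells gave another order. Of the strong CD73- alone HEB peaks, 41.4% overlapped an E2A peak of CD73- cells and 28.8% an E2A peak of CD73+ cells. Of the strong CD73+ alone HEB peaks, 9.17% overlapped an E2A peak of CD73+ cells and 12.4% an E2A peak of CD73- cells. Strong shared regions overlapped E2A peaks in 69.1% of cases in CD73- cells and 50% in CD73+ cells. The commonest pattern of a strong CD73+ alone peak, 65.1% (62.2 to 67.9) of 1080, was a DN3 peak with no E2A peak in either CD73 population. That pattern held for 22% (17.7 to 27.1) of 295 strong CD73- alone peaks. The CD73+ E2A list held 23205 peaks, of which 7.02% were strong. Exchanging it for the CD73+ HEB list lowered the shared part of the CD73- HEB list to 18.1%.

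The highest peaks of CD73- cells alone were of an unusual shape. The top of that set comprised 12 peaks of 84 to 151 bp with scores from 501 to 1301. The highest lay in Dpp9, a peptidase gene (1301, 106 bp wide), followed by sites nearest to Pla2r1, a phospholipase receptor gene (1099.9, 126 bp), Sulf1, a sulfatase gene (1096, 96 bp), and the olfactory receptor gene Olfr854 (1038, 94 bp). One lay in Myo7a, a gene of hair cell function. Others had Gulp1, an engulfment gene, and Nxph1, a synapse gene, as nearest gene, at 154372 and 936739 bp. The peak given to Bcl11a, a lymphoid transcription factor, lay 926515 bp away. All 12 overlapped a DN3 HEB peak and E2A peaks of both CD73 populations. At Dpp9 the DN3 HEB peak scored 1047, the CD73- E2A peak 645 and the CD73+ E2A peak 1076, against 95.3 for DN3 E2A. CD73+ cells therefore had signal there in the E2A precipitate and no HEB peak.

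This shape set the groups apart more widely. Of the strong CD73- alone peaks, 106 of 295 (35.9%) were 150 bp or narrower, against 22 of 1080 (2.04%) in CD73+ cells alone. At a score of at least 200 there were 32 such narrow peaks in CD73- cells alone and 0 in CD73+ cells alone. Of those 32, 30 overlapped a DN3 HEB peak, 27 a CD73- E2A peak, 29 a CD73+ E2A peak and 6 a DN3 E2A peak. Their absence from the CD73+ HEB list is fixed by the set itself. Among shared regions 40 were as narrow and as high, and the DN3 E2A list had a peak at all 40 of them, the DN3 HEB list at 39. Among strong peaks wider than 150 bp, a DN3 peak overlapped 67.7% of the CD73- alone set and 82% of the CD73+ alone set.

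**Figure D4:**
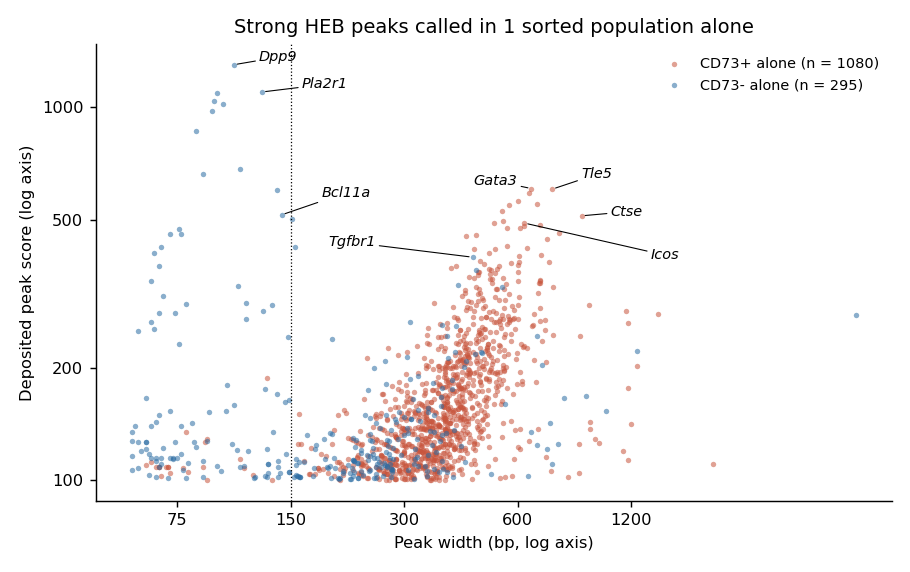
Width (horizontal, bp, log axis) and score (vertical, log axis) of strong HEB peaks found in CD73- cells alone (blue, 295) or CD73+ cells alone (red, 1080), with a dotted line at 150 bp. Blue points form a narrow, high-scoring arm left of the line that includes Dpp9 and Pla2r1, and red points lie mostly between 300 and 600 bp, with Tle5 and Gata3 at the top.

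Wide strong peaks numbered 189 in CD73- cells alone and 1058 in CD73+ cells alone. At Tgfbr1, a TGF-beta receptor chain, chr4:47425323-47425778 scored 397 (rank 193), with a DN3 HEB peak of 379. Counting every peak within 10 kb of its span, Tgfbr1 had CD73+ peaks only. At Dntt, which encodes the template-independent polymerase that adds bases to receptor junctions, chr19:41022234-41022665 scored 201 in CD73- cells alone, while a region within the gene was shared at 65.7 and 284. At Bcl11b, a T lineage commitment factor, a peak of CD73- cells alone (109) and a peak of CD73+ cells alone (201) lay in the gene span at chr12:107928120-107928389 and chr12:107926191-107926568. Both Bcl11b sites had DN3 HEB peaks, of 157 and 161.

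The highest peaks of CD73+ cells alone were wide and lay mostly at DN3 sites. The top 12 measured 519 to 887 bp and scored from 483 to 606, and 11 had a DN3 peak. A site 262693 bp from Gata3, a T lineage factor, scored 606 at chr2:9593733-9594385, with DN3 scores of 259 for HEB and 547 for E2A. A smaller peak beside it, at chr2:9595215-9595778, was shared at 112 and 207. In Tle5, a Groucho-type corepressor gene, chr10:81560900-81561640 scored 604. Klf13, a Krueppel-like factor gene, had a CD73+ alone peak of 549 at 918 bp from its start, beside a shared region of 905 and 1504 further out. The Trgc1 site, 2788 bp from a gamma chain constant region at chr13:19219406-19220092, scored 483, with DN3 scores of 111 and 169. Others lay in Dmwd, Colq, Rap1gap2, Ctse and Aff1. The exception was Icos, a costimulatory receptor gene, where chr1:61016567-61017191 scored 489.6 and no DN3 peak was called, although CD73- E2A had a peak of 69.4.

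Peaks of CD73+ cells alone outnumbered those of CD73- cells alone in 4 of 5 rearranging receptor loci. They did so over the whole lists too, at 7945 against 7069, and 1080 against 295 among strong peaks. The crowded megabases included chr14:53000001-54000000 in the joined Tcra and Tcrd locus, with 17 CD73+ alone peaks. Another, chr12:115000001-116000000 in the antibody heavy chain locus, had 24. Across the joined Tcra and Tcrd locus, chr14:52427967-54224198, there were 7 shared regions, 7 peaks in CD73- cells alone and 27 in CD73+ cells alone. Of these, 15 of the CD73+ alone peaks were strong and 0 of the CD73- alone peaks, and 23 of the 27 overlapped a DN3 peak. The Tcrb locus held 1 shared region and 6 peaks in CD73+ cells alone, 3 of them strong. The Tcrg locus held 3 shared regions, 1 peak in CD73- cells alone and 2 in CD73+ cells alone. In the antibody heavy chain locus, which T cells do not assemble, there were 36 peaks in CD73+ cells alone and 4 in CD73- cells alone, with 3 and 0 strong. In the antibody kappa chain locus the counts were equal, with 14 peaks in each alone set, 2 of the CD73+ alone peaks and 0 of the CD73- alone peaks strong.

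Over all scores, peaks of CD73+ cells alone lay more often in genes and near starts than peaks of CD73- cells alone. A gene span held 43.9% of shared regions, 38.5% (37.5 to 39.6) of CD73+ alone peaks and 32.9% (31.8 to 34) of CD73- alone peaks. A midpoint within 1 kb of a listed start was seen for 8.7%, 7.43% (6.87 to 8.04) and 2.35% (2.02 to 2.73). Among strong peaks the shares near a start were 10.6% (9.09 to 12.2), 14.5% (12.5 to 16.8) and 5.52% (3.42 to 8.77). The intervals of the alone sets overlapped for gene spans among strong peaks, at 51.7% (48.7 to 54.6) in CD73+ cells and 47.1% (41.5 to 52.8) in CD73- cells. Among strong peaks wider than 150 bp the span shares were 52% (49 to 55) and 49.2% (42.2 to 56.3), and the shares near a start 14.8% (12.8 to 17.1) and 8.02% (4.92 to 12.8). Starts were listed for 79.8% of genes and none on chromosome 18, and exons and introns were not distinguished.

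Of the 21907 genes, 1581 (7.22%) were nearest to a shared region and 3049 (13.9%) had peaks of both lists in some form. Peaks of CD73- cells alone were the only HEB peaks of 1983 genes (9.05%), and those of CD73+ cells alone of 2361 (10.8%). With strong peaks, 1166 genes (5.32%) had a shared region, 207 (0.945%) had CD73- alone peaks only and 687 (3.14%) CD73+ alone peaks only. In that strong count a gene may still have weaker peaks of another set. The 25 gene lists used here hold 470 genes, of which 170 (36.2%) had peaks of both lists, 30 (6.38%) of CD73- cells only and 67 (14.3%) of CD73+ cells only. Their strong counts were 101 (21.5%) with a shared region, 8 (1.7%) CD73- only and 51 (10.9%) CD73+ only. Counting peaks within 10 kb of a gene span instead gave 118 (25.1%), 35 (7.45%) and 82 (17.4%), where all genes gave 9.34%, 7.81% and 10.8%. The lists were compiled mostly for this lineage with earlier results known, so their excess over all genes is a description. Genes named below only to spell out a small count were added after their values were seen.

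Among HEB itself, its partners and its inhibitors, no gene had peaks of a single population only when peaks at any distance were counted. Within 10 kb Tcf4, an E protein gene, had CD73- peaks only and Id2 CD73+ peaks only, and with strong peaks Id4 had a CD73- alone peak only. Of 10 E protein and Id genes, 5 had peaks of both lists at any distance, where all genes gave 13.9%. The other 5 had none, Tcf3 among them. Tcf12, the HEB gene, had a shared region of 56.6 and 206 and a CD73+ alone peak of 242 at chr9:72097066-72097616 in its span. Id3 had a shared region of 66.0 and 94.3 at 2530 bp, and 6 peaks in CD73+ cells alone, the highest 85.2. Id2 had 5 shared regions, 6 peaks in CD73- cells alone and 5 in CD73+ cells alone. By nearest gene Id3, the inhibitor tied to receptor signals, thus had only weak peaks in both populations. Id3 spans chr4:136143822-136145392, and E2f2, given a high shared region above, spans chr4:136172274-136196057. Sites assigned to such a neighbour are not counted for Id3. Nt5e, which encodes CD73, was nearest to 1 region, shared at 104 and 314 and 231059 bp away. Counting every peak within 10 kb of its span, Nt5e had CD73+ peaks only, for which another gene was nearest.

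Among 29 T lineage commitment factors 16 had peaks of both lists. CD73- cells alone had peaks at Fli1, Mef2c, Myb and Spib, and CD73+ cells alone at Ets2 and Meis1. Sox4, a high-mobility-group factor of early gamma-delta cells, had a shared region of 442 and 836 at 5802 bp from the gene. Sox13, a relative tied to the IL17-producing lineage, had a weak shared region of 65.1 and 87.1. Lef1, partner of TCF-1, had a shared region of 109 and 591, and a CD73+ alone peak of 268. Ets1 had a shared region of 247 and 611 and a CD73+ alone peak of 229. Of 18 Notch pathway genes 6 had peaks of both lists, with Rbpj in CD73- cells only and Dtx1 and Hey1 in CD73+ cells only. Notch3 was shared at 725 and 952 and Notch1 at 201 and 259.9, and Lfng, which modifies Notch receptors, had a CD73+ alone peak of 202. Most commitment and Notch genes with any peak thus had peaks of both lists when distance was not limited, where all genes gave 13.9%. The CD73- only and CD73+ only shares were 13.8% and 6.9% for commitment factors and 5.56% and 11.1% for Notch genes. All genes gave 9.05% and 10.8%. Within 10 kb 9 commitment factors had peaks of both lists, 3 CD73- only and 4 CD73+ only, Lef1 and Tcf7 among the last. For Notch genes these counts were 4, 2 (Lfng and Rbpj) and 3 (Dtx1, Hes1 and Hey1).

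Most T cell receptor and CD3 genes had a shared region, and a smaller share of the proximal signalling genes did (30.4%). Of 13 T cell receptor and CD3 genes, 8 had a shared region (61.5%), none had CD73- peaks only, and Cd3d (57.8) and Trbc1 (142) had CD73+ peaks only. All genes gave 7.22% for a shared region and 10.8% for CD73+ peaks only. At a score of at least 100 in both lists, 4 of the 13 had a shared region and 5 had CD73+ peaks only. Trdc, the delta chain constant region, had 5 shared regions, 2 peaks in CD73- cells alone and 9 in CD73+ cells alone. Trbc2, a beta chain constant region, was shared at 317 and 1026, and Cd247, the zeta chain, at 282 and 487. Of 10 recombination and coreceptor genes, 4 (40%) had a shared region, against 7.22% of all genes. Rag1, a recombinase subunit, was shared at 70.6 and 169 at 1110 bp from its start and had a CD73+ alone peak of 104 at the start itself. Cd8b1, a CD8 chain, had a CD73- peak only (77.2), and Themis, needed for thymocyte selection, a CD73+ peak only (143). No HEB peak was nearest to Rag2 or to Ptcra, the pre-TCR alpha chain. Of 23 proximal signalling genes, 6 had CD73+ peaks only, among them Ptpn22, Sla, Syk and Zap70, and Ubash3a, a brake on receptor signals, had a CD73- peak only (83.6). These shares were 26.1% and 4.35%, where all genes gave 10.8% and 9.05%. Prkcq, a protein kinase C, had a CD73+ alone peak of 363.

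Genes that respond to receptor signals were not uniformly bound. Of 25 such genes 11 had peaks of both lists, with Dusp5 and Egr1 in CD73- cells only and Cd5, Egr2, Fos, Nab2 and Nr4a3 in CD73+ cells only. These shares were 44%, 8% and 20%, where all genes gave 13.9%, 9.05% and 10.8%. By nearest gene, Egr1 and Egr2 rested on single weak peaks of 64.8 and 54.2, and Egr3 had none. Counting every peak within 10 kb of a span, Egr1 had peaks of both lists and only Dusp5 kept CD73- peaks only. Nr4a3, a receptor-induced nuclear factor, had a CD73+ alone peak of 155. Dusp10, a MAP kinase phosphatase, was shared at 69.7 and 419.9.

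The effector programmes of gamma-delta cells had single-population peaks on both sides when peaks at any distance were counted. Of 16 IL17-programme genes, 9 had peaks of both lists, with Il17a (73.0), Il17f (67.1) and Maf (78.7) in CD73- cells only and Ccr6 and Zbtb16 (63.9) in CD73+ cells only. Blk, a kinase of IL17-producing cells, was shared at 89.3 and 487, and the cytokine gene Il22 at 247 and 951. Of 17 interferon-gamma-programme genes, 4 had peaks of both lists. The shares with both lists, CD73- only and CD73+ only were 56.2%, 18.8% and 12.5% for the IL17 programme. They were 23.5%, 11.8% and 23.5% for the interferon-gamma programme, where all genes gave 13.9%, 9.05% and 10.8%. Eomes (103) and Tbx21, T-box factors of the interferon-gamma programme, had CD73- peaks only. Gzma (132), Il2rb (106), Slamf7 and Stat4 had CD73+ peaks only, and Ifng had a strong CD73+ alone peak of 182. All of these single-population sites except that of Ifng scored under 135, so the split among the genes named here rests on low peaks. The CD73- side also rests on distant peaks, 27079 bp from Il17a, 14390 bp from Il17f, 282006 bp from Maf and 20305 bp from Eomes. Within 10 kb only Il23r, an IL23 receptor chain, had CD73- peaks only in the IL17 list, and no gene did in the interferon-gamma list, where Gzma, Il2rb, Slamf7 and Stat4 kept CD73+ peaks only.

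Surface molecules of gamma-delta maturation held the largest share with strong CD73+ alone peaks only of the 25 lists, an order that did not hold under other counting rules. With all peaks 2 of 17 (11.8%) had CD73+ peaks only, against 27.8% of the protein tyrosine phosphatases. Within 10 kb of a gene span the shares were 29.4% and 44.4%. Of the 17 markers, 11 had peaks of both lists and none had CD73- peaks only. With strong peaks, 7 (41.2%) had a shared region and 6 (35.3%) had CD73+ alone peaks only, where all genes gave 5.32% and 3.14%. Those 6 were Cd44, Il2ra, Itgae, Ptprc, Slamf6 and Thy1. Ptprc, the CD45 phosphatase, had CD73+ alone peaks of 344, 327 and 257, all with DN3 HEB and E2A peaks. Itgae, the CD103 integrin chain, had one of 176, and Slamf6, a lymphocyte receptor, one of 132. The costimulatory receptor gene Cd27 was shared at 139.7 and 133, and Cd200 at 467 and 358.

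Homing and cytokine receptors gave similar counts. Of 24 chemokine receptor, egress and homing genes, 6 (25%) had strong CD73+ alone peaks only, namely Ccr7, Ccr8, Cd44, Itgae, Klf2 and S1pr1. All genes gave 3.14% for strong CD73+ alone peaks only. Ccr7, a receptor for lymph node entry, had CD73+ alone peaks of 244 and 232. Ccr8 had one of 272, and Klf2, a factor for thymic exit, one of 236 at 250 bp from its start, with a DN3 HEB peak of 155. Ccr9, the gut-homing receptor, was shared at 308 and 1079 and at 359 and 903. Of 27 cytokine receptor genes 5 had strong CD73+ alone peaks only, Ifnar2 (134) and Ifngr1 (408) among them. Of 21 costimulatory and inhibitory receptors 4 did so, Icos, Pdcd1 (271), Slamf6 and Tigit. Counting every peak of any score within 10 kb of a span, Ifngr1 and Tigit had CD73- peaks only. Ifnar2, Pdcd1 and Slamf6 kept CD73+ peaks only under that count. Vsir, an inhibitory receptor gene, was shared at 537 and 758. Of 23 NFAT, NF-kB and TRAF genes 5 (21.7%) had strong CD73+ alone peaks only, with Nfatc2 at 138 and Traf3 at 109, while Nfkbia, the NF-kB inhibitor, was shared at 69.96 and 458.

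Many growth and survival genes had no HEB peak, as did most of all 21907 genes. Of 25 G1 to S genes 8 (32%) had a shared region, where all genes gave 7.22%, and 12 (48%) had no peak. Btg1, an antiproliferative gene, was shared at 109 and 649, 245574 bp away. Cdkn1a (73.3) and Cdkn2a (109), both cell cycle inhibitors, had CD73- peaks only, and Mycn (66.8) a CD73+ peak only. Of 22 survival genes 5 (22.7%) had a shared region and 13 (59.1%) had no peak, and Bcl2 (95.7) was among those with CD73+ peaks only. The death genes Bcl2l11 and Bbc3 were shared at 346 and 508 and at 290.1 and 744. Of 18 quiescence genes 8 (44.4%) had peaks of both lists, against 13.9% of all genes, and 8 had none. Klf10 (195) and Klf2 had CD73+ peaks only. Of 37 chromatin regulators, 9 had a shared region, such as Chd7 (444 and 1106) and Hdac7 (129 and 594). Chd2, a chromatin remodeller, had a CD73+ alone peak of 285. Of 18 protein tyrosine phosphatases 4 (22.2%) had strong CD73+ alone peaks only, Ptpn7 (154) and Ptpra (127) among them. Of 20 JAK, STAT and SOCS genes 2 (10%) did so, against 3.14% of all genes.

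Genes of other cell types served as a comparison. Strong CD73+ alone peaks only were seen for 2 of 18 B lineage genes, Ighm (215) and Pou2af1 (106), for 0 of 19 myeloid, 0 of 18 NK and innate, 0 of 17 erythroid and 1 of 19 stromal and liver genes, the last being Dlk1 (292). These shares were 11.1%, 0%, 0%, 0% and 5.26%, where all genes gave 3.14%. Strong shared regions were seen for 0, 3, 3, 1 and 3 genes of these lists. That is 0%, 15.8%, 16.7%, 5.88% and 15.8%, where all genes gave 5.32%. The myeloid, NK and innate, and stromal and liver lists thus also stood above all genes. Homing genes gave 16.7% and cytokine receptor genes 14.8%. The myeloid count includes Itgam. A peak beside a gene is not its expression, so these counts name no cell.

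**Figure D5:**
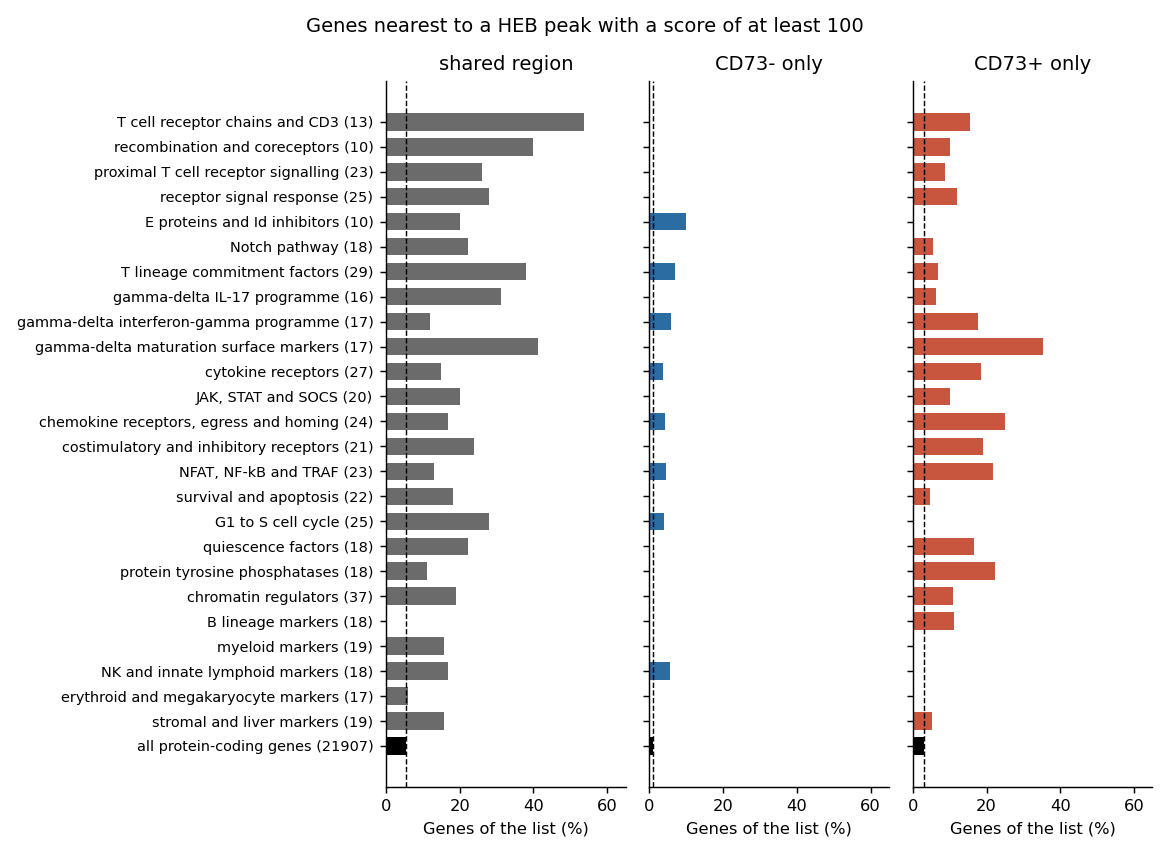
Share of each gene list (horizontal axes, %, list sizes in parentheses) nearest to a strong shared region (grey), to strong CD73- alone peaks only (blue) or to strong CD73+ alone peaks only (red), with all 21907 genes in black and as a dashed line. T cell receptor and maturation marker genes reach 53.8% and 41.2% for shared regions, and maturation markers reach 35.3% for CD73+ alone peaks, where all genes give 5.32% and 3.14%.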

How the data were processed

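Chromatin immunoprecipitation and sequencing was done on 9 samples, and 6 peak lists were used. Per the submitters' processing notes, the authors used Bowtie, HOMER and MACS 1.4.2 with build mm10, and per the labels' protocols duplicates were concatenated before peak calling. The deposited score, computed by the authors as -10 times the log10 of the peak p-value, starts at 50 and was used only to rank and filter peaks within its list. Columns of other samples numbered 0. Depth is unknown.

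On the 21 main chromosomes, peaks were joined across lists at an overlap of 1 bp and assigned to the nearest of 21907 RefSeq genes (20 of them constant regions), counted from spans. Shares carry 95% Wilson intervals, and no p-value was computed. The 25 gene lists hold 472 symbols, of which 470 matched. Members, lists and rules were chosen with earlier results of these data known. Named genes are those nearest to the 12 highest peaks of each set, up to 4 highest and 3 single-population members per list, the 5 genes with most peaks per set, and fixed regulators. Results for some genes that these rules name are not reported here. Motifs were searched in promoter windows only, since no genome sequence was used here. The overlap and assignment code was tested on simulated data. Alternatives changed the score minimum, overlap rule, list length, peak width, DN3 list and gene window. Software was matplotlib 3.10.9, scipy 1.17.1, pandas 2.3.3 and numpy 2.4.6 on Python 3.11.15.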

Additional observations from a re-analysis of the deposited data

How the results depend on the processing

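The deposited lists carry no depth and no replicates, so intervals cover counting error alone and each difference may belong to a library rather than a population, which cannot be told apart. No paired analysis was possible because each population has 1 pooled list and no result comes from a test. For the share of CD73- and of CD73+ HEB peaks found in the other list, 24.9% and 22.1% as reported, a score of at least 100 in both lists gave 67.4% and 36.8%, and a score of at least 100 in the list counted alone gave 78.1% and 56.1%. A reciprocal overlap of 50% gave 16.2% and 15%, midpoints within 200 bp 23.1% and 20.9%, and peaks within 500 bp 28.4% and 25.9%. With lists of equal length the CD73+ share was 23.4%. Using the CD73+ E2A list in place of CD73+ HEB gave 18.1% and 7.44%. Added after the data were seen, leaving out peaks of 150 bp or narrower gave 37.2% and 20.1%, and leaving out crowded megabases 22.7% and 20.4%. In every alternative run the CD73- share was the higher of the pair. A shorter list gives a higher share for the same number of overlaps. The CD73- list was the shorter as reported (9407 against 10194), among strong peaks (1348 against 2458) and against CD73+ E2A (23205). This order therefore does not compare the populations.

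For overlap with a DN3 peak in the shared, CD73- alone and CD73+ alone sets, 86.9%, 15.4% and 33.1% as reported, strong peaks gave 96.6%, 60% and 80.7%. DN3 HEB peaks by themselves gave 75.8%, 12.5% and 24%, DN3 E2A peaks by themselves 78.8%, 8.46% and 27.8%, and strong DN3 peaks 74.1%, 8.32% and 20.7%. A reciprocal overlap of 50% between the HEB lists gave 23.1% for CD73- alone and 37.7% for CD73+ alone. Without peaks of 150 bp or narrower the values were 92.8%, 25.8% and 41.9%, and without crowded megabases the CD73- alone value was 14%. With CD73+ E2A in place of CD73+ HEB they were 64.4%, 26.3% and 5.43%, so that the alone sets changed order under that exchange. At a score of at least 100 in both lists, genes with a shared region fell to 744, genes with CD73- alone peaks numbered 294 and with CD73+ alone peaks 994, and list members numbered 62 with both and 12 with CD73- only. Within 10 kb 1039 genes had a shared region.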

Other observations

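Single genes collected unusual numbers of peaks of one set. The stretch nearest to Gas8, a ciliary dynein regulator gene on chromosome 8, held 36 HEB peaks in CD73- cells alone, 7 in CD73+ cells alone and 2 shared regions. The highest CD73- alone peak there scored 117, and the DN3 HEB peak over it scored 1259 with no DN3 E2A peak. Zfp386, a zinc finger gene beside the antibody heavy chain variable segments on chromosome 12, had 27 peaks in CD73+ cells alone, 4 in CD73- cells alone and 5 shared regions. Gm40363 on chromosome 6 had 22 shared regions, 10 peaks in CD73- cells alone and 1 in CD73+ cells alone.

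The X chromosome had the lowest shared fraction of the 21 chromosomes in both lists, with 13.2% of 539 CD73- peaks and 12.5% of 560 CD73+ peaks. It held 1.94% of the strong shared regions and 5.87% of the weaker ones, and weaker peaks were shared less often throughout. On chromosome 8 the fractions were 35.1% of 797 and 32.8% of 838. Its crowded stretches chr8:19000001-20000000 and chr8:20000001-21000000 held 23 and 112 shared regions. On chromosome 19 the fractions were 35.5% and 26.7%.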
